A study of Mus musculus with 30 samples.

Results

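Cd4, Izumo1r and Ebi3 are 3 genes known from helper and regulatory T cells, and they were followed in circulating leukocytes after a single kind of chemotherapy. They were chosen by name on earlier calls between the groups compared here, so their own differences are given as a description, with no test. Each gene has 1 probe on the array, and the 3 are counted among 9616 genes with 1 symbol. All 3 had a value in 30 of 30 columns and passed the filter on missing values, which 6515 of 13027 features passed.

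The samples are leukocytes from the peripheral blood of inbred mice of the strain DBA/2: 4 from untreated animals, and 4, 4 and 3 taken 1, 2 and 5 days after cyclophosphamide at 83 mg/kg by intraperitoneal injection. Cyclophosphamide is an alkylating drug that kills dividing cells, blood cell precursors among them. Age is not given in the labels, and the labels call the samples independently harvested. Each value is a log2 ratio of blood RNA over a common reference of pooled DBA/2 bone marrow cells on the same array, so a value above 0 means more signal from blood than from marrow. A label calls the pool untreated, while the treatment text of the reference channel names the drug at the same dose. A constant reference drops out of differences between groups. Lower ratios in bulk blood can come from fewer cells of a type or from less RNA per cell, and these cannot be told apart.

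CD4 is the surface coreceptor that lets the T cell receptor of helper cells read antigen on MHC class II molecules, and it brings the kinase Lck to the receptor. Regulatory T cells, the CD4 cells that restrain immune responses under the transcription factor Foxp3, also carry a member of the folate receptor family, folate receptor 4. Its gene is Izumo1r, named for its other role as Juno, the egg's receptor for the sperm protein Izumo1. EBI3 is a secreted subunit that pairs with p28 as interleukin-27, made by activated myeloid cells, and with the p35 chain, product of Il12a, as interleukin-35, known from regulatory T cells.

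The regions around the start sites of Izumo1r and Ebi3 are shown, since only these 2 of the 3 genes were matched. The regions were taken from RefSeq on GRCm38.p6, from 250 bases before the start to 50 after it. As shown further on, the mean of Izumo1r was higher at day 5 than at day 2, and those of Ebi3 and Cd4 were lower. Capitals mark the match to any of 6 motifs searched on both strands. The letters searched for GATA factors were AGATAA, for the RUNX family TGTGGT, for the ETS family CCGGAAG, for STAT factors TTCNNNGAA, for the box bound by TBP (the general initiation factor) TATAAA and for the E box CACGTG. No other of these was found in either region. Variants of these letters were not searched, so a missing match does not show that a factor's site is absent. The Izumo1r region is chr9:14903718-14904017 on the minus strand, and the Ebi3 region is chr17:55952373-55952672 on the plus strand.
Izumo1r: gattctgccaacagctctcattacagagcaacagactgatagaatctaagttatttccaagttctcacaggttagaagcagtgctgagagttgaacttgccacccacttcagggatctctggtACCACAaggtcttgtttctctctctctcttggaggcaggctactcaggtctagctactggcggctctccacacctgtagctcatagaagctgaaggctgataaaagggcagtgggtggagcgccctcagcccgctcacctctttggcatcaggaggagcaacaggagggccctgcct
Ebi3: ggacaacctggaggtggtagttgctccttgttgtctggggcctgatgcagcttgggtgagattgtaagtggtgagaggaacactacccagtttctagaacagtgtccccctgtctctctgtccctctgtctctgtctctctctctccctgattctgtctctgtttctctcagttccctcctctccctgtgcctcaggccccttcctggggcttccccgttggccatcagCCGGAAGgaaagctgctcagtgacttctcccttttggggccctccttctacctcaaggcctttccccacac

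In the Izumo1r region the RUNX letters lie on the opposite strand at bases 124 to 129 of the 300, and in the Ebi3 region the ETS letters lie at bases 230 to 236. RUNX factors are regulators of T cell development, and ETS factors are common at promoters of blood cell genes. Of 32851 such regions of all genes and transcripts in that source, 16.8% hold TGTGGT and 8.9% hold CCGGAAG on either strand. GC content was 52.3% for Izumo1r and 56.3% for Ebi3. These are matches of letters and not known binding sites, and no factor's binding was measured.

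Cd4 was higher in blood 1 and 2 days after the drug and lay on both sides of the untreated range at day 5. The untreated samples read 0.29, 0.28, 0.43 and 0.50. At day 1 the values were 0.96, 0.51, 0.56 and 0.62. At day 2 they were 0.87, 1.06, 0.61 and 1.08. All 8 values of the first 2 days lay above every untreated value, the lowest day 1 value, 0.511, by little over the highest untreated one, 0.504. These are averages of technical replicates. In the first technical replicates alone day 1 and untreated overlapped, with day 1 replicate 2 at 0.587 and untreated replicate 4 at 0.634. The 3 day 5 samples were spread widely, at 0.01, 0.18 and 0.77, so 2 lay below all untreated samples and 1 above them.

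The mean log2 ratio of Cd4 was 0.38 ± 0.11 (SD, n = 4) in untreated samples, 0.66 ± 0.20 (n = 4) at day 1, 0.91 ± 0.22 (n = 4) at day 2 and 0.32 ± 0.40 (n = 3) at day 5. In differences, that is 0.29 ± 0.16 (SE of the fit) at day 1, 0.53 ± 0.16 at day 2, or 1.45-fold, and -0.05 ± 0.17 at day 5, each against untreated. Between day 2 and day 5 the difference was -0.58 ± 0.17, yet the groups overlapped, since the highest day 5 sample lay above the lowest day 2 sample. Neighbouring means in the order day 5, untreated, day 1, day 2 overlapped in their samples except untreated and day 1. Cd4 was also the least repeatable of the 3 probes: the gap between technical replicates had a median of 0.15 and reached 0.43, against medians of 0.05 for Izumo1r and 0.08 for Ebi3.

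Izumo1r moved the other way and further. Its untreated values were -0.12, 0.03, 0.19 and 0.40. At day 1 they were -0.92, -1.01, -0.08 and -0.46, and at day 2 they were -1.002, -1.38, -1.51 and -1.18. By day 5 the gene read 0.84, 0.26 and 0.36. Every day 2 sample lay below every untreated sample and every day 5 sample, while day 1 overlapped both untreated, through its replicate 3, and day 2, through its replicate 2.

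In means, Izumo1r stood at 0.12 ± 0.23 (SD, n = 4) in untreated samples, -0.62 ± 0.43 (n = 4) at day 1, -1.27 ± 0.22 (n = 4) at day 2 and 0.49 ± 0.31 (n = 3) at day 5. The difference from untreated was -0.74 ± 0.20 (SE) at day 1 and -1.39 ± 0.20 at day 2, a ratio 2.62-fold lower. From day 2 to day 5 it was 1.75 ± 0.22, or 3.37-fold higher, and day 5 stood 0.36 ± 0.22 above untreated with overlapping samples. From the lowest mean the order was day 2, day 1, untreated, day 5, and each neighbouring pair of groups overlapped.

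Ebi3 had a course of its own, lower at day 1 and lowest at day 5, with day 2 near untreated. The untreated samples read -0.18, -0.27, -0.02 and -0.07. At day 1 the values were -0.40, -0.29, -0.85 and -0.83, all below the untreated ones. At day 2 they were 0.16, 0.02, -0.52 and -0.14, on both sides of the untreated range. The day 5 samples, at -1.38, -0.89 and -0.81, lay below all untreated and all day 2 samples.

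Mean log2 ratios of Ebi3 were -0.13 ± 0.11 (SD, n = 4), -0.59 ± 0.29 (n = 4), -0.12 ± 0.30 (n = 4) and -1.03 ± 0.31 (n = 3) in the order untreated, day 1, day 2, day 5. Against untreated the differences were -0.46 ± 0.17 (SE) at day 1, 0.01 ± 0.17 at day 2 and -0.90 ± 0.19 at day 5, the last a ratio 1.86-fold lower. From day 2 to day 5 the difference was -0.91 ± 0.19. From the lowest mean the order was day 5, day 1, untreated, day 2, with overlap between day 5 and day 1 and between untreated and day 2, and none between day 1 and untreated.

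**Figure D1:**
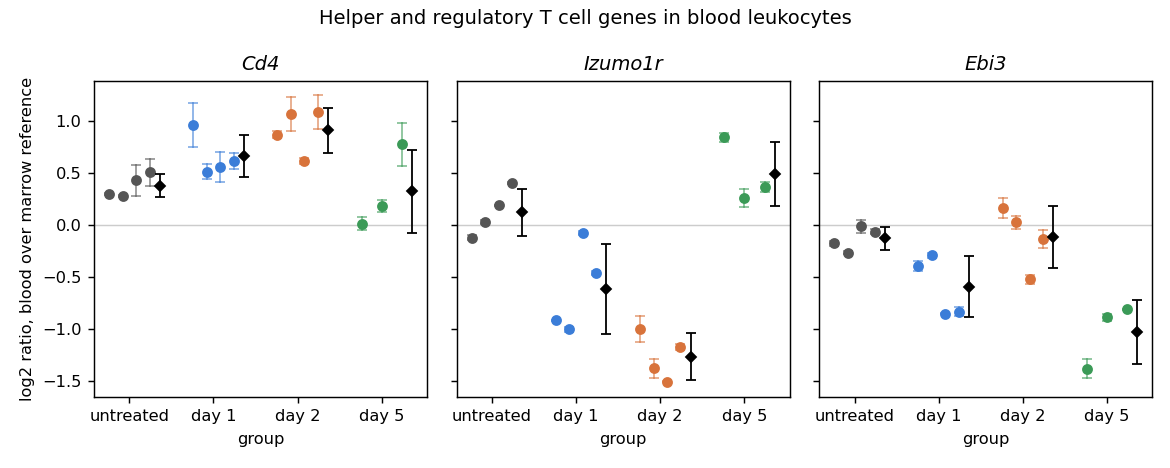
Log2 ratios of blood over the marrow reference (vertical axis) for Cd4, Izumo1r and Ebi3 in each group (horizontal axis); points are samples, the thin bars through them join the 2 technical replicates, and diamonds with bars are group means ± SD. Cd4 is highest at day 2, Izumo1r is lowest at day 2 with a mean of -1.27, and Ebi3 is lowest at day 5 with a mean of -1.03.

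The background against which these courses stand differed between the days. A feature was called at a limma adjusted p under 0.05 (Benjamini-Hochberg over all tested features). At day 1 against untreated, 2.29% of the 6515 features were called higher and 2.32% lower. There the samples of Cd4 lay wholly above and those of Ebi3 wholly below untreated. At day 2, 4.83% were called higher and 7.84% lower, and Cd4 lay wholly above and Izumo1r wholly below. At day 5 the shares were 0.261% and 0.829%, and Ebi3 lay wholly below. Between day 5 and day 2, 12.8% were called higher and 12.7% lower, with Izumo1r wholly above and Ebi3 wholly below. Samples lying wholly above or below is a different measure from a call, and its share over all features was not computed. The shares called therefore give no rate for it. Nothing is read from these counts, since the same contrasts chose the genes. The 3 comparisons with untreated share the same 4 untreated samples, and the 2 comparisons with day 2 share its 4.

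Across the 15 samples the 3 genes did not run together. As a description, Pearson's r was -0.73 between Cd4 and Izumo1r, 0.49 between Cd4 and Ebi3 and -0.49 between Izumo1r and Ebi3. After group means were removed, r was -0.12, 0.58 and -0.38. These points share the marrow reference and the arrays, and 15 samples in 4 groups are few.

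Genes with a course like that of each of the 3 were sought among 3561 named features with values in all 15 samples. For Cd4, 36 had r over 0.8 and 2 had r over 0.9. The 5 closest were Chst14 (r = 0.93), which sulfates dermatan sulfate, Ang5 (0.91), of the angiogenin ribonucleases, Tgm1 (0.88), a transglutaminase of skin, Map3k3 (0.88), a kinase of the MAP kinase cascades, and Pnpla2 (0.88), a triglyceride lipase. For Ebi3, 30 had r over 0.8 and 0 over 0.9, the closest being Zcchc8 (0.88), Moap1 (0.86), Lamtor3 (0.85), Ssr2 (0.85) and Hcls1 (0.85). Hcls1 encodes a substrate of Lck and related kinases in blood cells, and Zcchc8 a subunit of an RNA-degrading complex.

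Izumo1r had many more companions: 296 features had r over 0.8, 160 over 0.9 and 85 over 0.95. The closest were Oaz3 (r = 0.993), known as the antizyme of the testis, Ccdc91 (0.991), Lce1d (0.989), of the skin's cornified envelope, Fxyd6 (0.989), a regulator of the sodium pump, and Klk1b5 (0.987), a kallikrein. With group means removed, these 5 still correlated with Izumo1r at 0.95, 0.95, 0.95, 0.92 and 0.94. In all, 55 features had r over 0.8 on such deviations from the group means, against 12 for Cd4 and 12 for Ebi3. So the likeness covered differences between replicates of a group as well as those between days. Oaz3, for example, read -0.68, -0.89, 0.14 and -0.29 at day 1, where Izumo1r was also highest in replicate 3. At day 2 Klk1b5 read -1.62, -1.95, -2.32 and -2.01, with its lowest value in replicate 3 as for Izumo1r, Oaz3 and Ccdc91. Lce1d and Fxyd6 were instead lowest in replicate 2, at -2.47 and -1.81, against -2.41 and -1.69 in replicate 3.

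**Figure D2:**
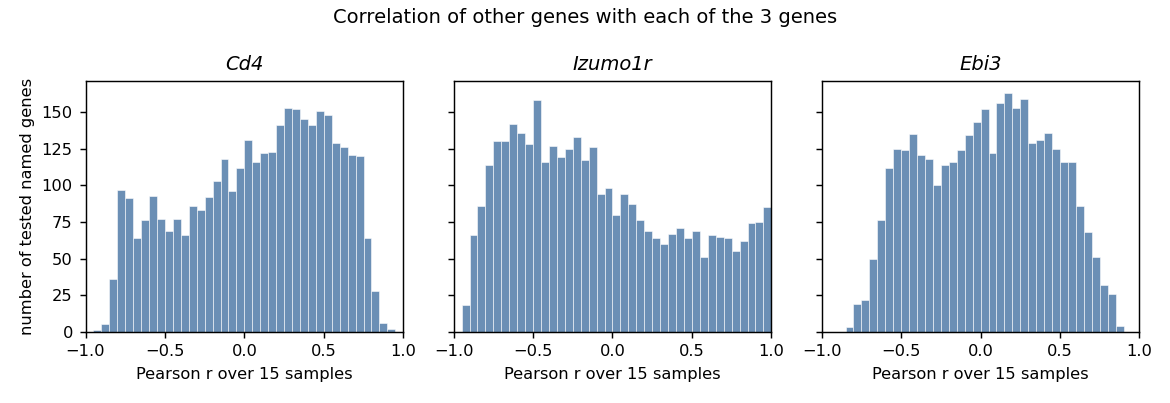
Number of named features (vertical axis) by their Pearson r with Cd4, Izumo1r or Ebi3 over 15 samples (horizontal axis, bins of 0.05). The Izumo1r panel has a second rise at the right edge, where 85 features lie above 0.95, while Cd4 and Ebi3 have 0 there.

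Alas2, which encodes the heme synthesis enzyme of red cell precursors, ran beside Izumo1r with r = 0.94 (0.61 with group means removed). Alas2 read -0.47, -0.30, 0.39 and 0.77 in untreated samples and -1.73, -1.60, -0.73 and -1.14 at day 1. At day 2 it read -1.33, -3.24, -3.05 and -3.30, and at day 5 it read 0.64, 0.49 and 1.39. Its change was -2.83 at day 2 (limma adjusted p = 0.00024) and 3.57 from day 2 to day 5 (adjusted p = 3e-05). Of the other erythroid genes tested, Bnip3l was called in the same direction in both comparisons, at -0.60 and 1.12, while the red cell membrane gene Rhag was called lower at day 5 than at day 2, at -0.84. Of 9 tested genes of the erythroid list, 2 were called lower at day 2, but 5 had a change above 0 and the median change was 0.09. The mean log2 ratio over the 7 complete list genes ran from -0.35 to -0.20 in untreated, -0.33 to -0.26 in day 1, -0.82 to -0.43 in day 2 and -0.18 to 0.12 in day 5 samples. Without Alas2, a choice made after seeing the data, the mean over the other 6 ran from -0.44 to -0.19, -0.18 to -0.09, -0.42 to -0.14 and -0.30 to -0.10, so that day 2 overlapped untreated.

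Monocyte genes were also lower at day 2 and higher again at day 5. Of 9 tested monocyte and macrophage genes, 3 were called lower at day 1, 7 at day 2 (median change -1.05), and 6 were called higher at day 5 than at day 2 (median 0.95). Ctsc, a lysosomal protease, had a change of -2.07 at day 2, and Ccl2, a chemokine that draws monocytes, one of -2.03 (limma adjusted p = 0.00053 and 0.0022). The mean log2 ratio over 6 complete monocyte genes ran from 0.77 to 1.54 in untreated, 0.20 to 0.84 in day 1, -0.27 to -0.07 in day 2 and 0.92 to 1.41 in day 5 samples. Of 8 tested dendritic cell genes, 1 was called lower at day 1 and 2 at day 2, Ccr9 and Batf3, a factor of cross-presenting dendritic cells, the latter at -1.07 (adjusted p = 0.0049). Whether erythroid, monocyte or dendritic cell RNA has a part in the Izumo1r course was not tested.

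The marker lists for T cells and regulatory T cells were thinly measured. Of 18 T cell identity genes on the array, 5 were tested. The defining chains had few values: Cd3g, a chain of the CD3 complex, had one in 6 of 15 samples, Cd3d in 2, Thy1 in 2 and Cd3e, Cd247 and Cd2 in 0. Foxp3 had a value in 4 samples, 0.82 and 0.73 in 1 sample each of day 1 and day 5 and 1.15 and 0.88 in 2 of day 2, and Il2ra in 0. No source used here says why probes lack values, so a missing value shows no level. Among the 5 tested genes, 0 were called in any of the 4 comparisons by limma, with 1, 0, 0 and 1 at an unadjusted p under 0.05 in day 1, day 2 and day 5 against untreated and in day 5 against day 2. The mean log2 ratio over the 3 complete T cell genes was above 0 in every sample, from 0.51 to 1.29 in untreated, 1.07 to 1.58 in day 1, 0.33 to 1.39 in day 2 and 0.28 to 1.01 in day 5 samples.

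Genes that work with the 3 were compared next, in 8 lists of 199 genes in all, of which 139 were on the array and 63 were tested, the 3 themselves left out. Together, 4 were called higher and 2 lower at day 1, with a median change of 0.09 against 0.03 over all tested features. At day 2, 4 were called higher and 3 lower, with medians of 0.07 and 0.06. At day 5, 0 were called higher and 1 lower, with medians of -0.06 and 0.0044. Between day 5 and day 2, 6 were called higher and 6 lower, with medians of -0.18 and -0.07. Calls thus went in both directions in 3 of the 4 comparisons, and over all tested features they did so in all 4. Of all tested features, 2.29% were called higher and 2.32% lower at day 1, and 4.83% and 7.84% at day 2. For day 5 the shares were 0.261% and 0.829%, and between day 5 and day 2 they were 12.8% and 12.7%. Counts of called genes in every list, those of other cell types included, are to be read beside these shares. At an unadjusted p under 0.05 were 18, 14, 15 and 20 of the 63 in the order day 1, day 2, day 5 against untreated, and day 5 against day 2, where 21.1%, 26.7%, 17.4% and 37.6% of all tested features were. Counts at an unadjusted p elsewhere are to be read beside these shares.

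The partners of CD4 come first. H2-Aa, the MHC class II chain that presents antigen to CD4 T cells, had values from 1.46 to 2.08 in untreated samples, 0.56 to 1.51 at day 1, 0.89 to 1.51 at day 2 and 0.76 to 1.25 at day 5, the last without overlap. Its changes were -0.64, -0.61 and -0.77 at days 1, 2 and 5, with limma adjusted p = 0.083, 0.065 and 0.11. H2-DMb1, which helps load peptide on class II, was called only between day 5 and day 2, at 0.41 ± 0.12 (SE, adjusted p = 0.021). Of the 6 tested class II and ligand genes, 1 was called in 1 comparison. That call was lost without day 5 replicate 1 or 2 (adjusted p = 0.098 and 0.056), and with the first technical replicate alone.

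In the 10 tested genes of T cell receptor signalling, which acts downstream of CD4 and Lck, 0 were called in any comparison by limma, with 2, 2, 1 and 2 at an unadjusted p under 0.05. Those with the lowest F test p were Prkcq, the kinase theta of the T cell synapse, with a change of 0.36 at day 1 (adjusted p = 0.25), and Nfatc2, a calcium-dependent factor, with 0.27 at day 2 (adjusted p = 0.14). Zbtb7b, the factor that commits thymocytes to the CD4 lineage, had a change of 0.29 ± 0.11 at day 1 (adjusted p = 0.13) and 0.20 at day 2 (adjusted p = 0.26). Gata3, of helper type 2 cells, had 0.54 at day 1 (adjusted p = 0.21), and Sh2d2a, a T cell adapter, -0.67 from day 2 to day 5 (adjusted p = 0.053).

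Among 16 tested helper lineage genes, factors and cytokines of different helper types were called. Tbx21, the factor of helper type 1 cells, read 0.17, 0.10, 0.37 and 0.16 in untreated samples and 0.56, 0.84, 0.40 and 0.70 at day 1, without overlap, a rise of 0.42 ± 0.11 (SE, limma adjusted p = 0.044). Il17a, the cytokine of helper type 17 cells, rose by 0.41 at day 1 and 0.37 at day 2 (adjusted p = 0.044 and 0.036). Its 4 day 2 values, from 0.26 to 0.39, lay above untreated replicate 1, at 0.24, and the other untreated samples, at or below -0.06; day 1 replicate 3, at 0.17, lay below replicate 1. Stat4 and Cxcr3, a signal transducer and a chemokine receptor of type 1 cells, fell between day 2 and day 5, by 0.73 ± 0.20 and 0.59 ± 0.13 (adjusted p = 0.016 and 0.0043). Stat4 had values in 12 of 15 samples.

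The type 2 cytokine Il4 had a course like that of Izumo1r (r = 0.90, and 0.69 with group means removed). It read 0.19, 0.19, 0.57 and 0.27 in untreated samples, -0.21, -0.19, 0.42 and 0.12 at day 1, -0.17, -0.07, -0.68 and -0.12 at day 2 and 0.90, 0.86 and 0.40 at day 5. It fell by 0.57 ± 0.17 at day 2 (SE, limma adjusted p = 0.044) and was higher by 0.98 ± 0.19 at day 5 than at day 2 (adjusted p = 0.0014). Il13, the other type 2 cytokine measured, was higher at day 5 than at day 2 by 0.50 ± 0.17 (adjusted p = 0.038). Slamf1, a costimulatory receptor, had 1.27 ± 0.49 at day 1 (adjusted p = 0.15).

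Most of these helper calls were near the threshold and were lost without single libraries or under other settings. The day 1 calls of Tbx21 and Il17a were each lost without 1 library in 8 of 15 cases, at adjusted p of up to 0.15 and 0.14. For both genes these were untreated replicates 2, 3 and 4, day 1 replicates 1, 2 and 4 and day 2 replicate 4, with untreated replicate 1 for Tbx21 and day 2 replicate 3 for Il17a. The day 2 calls of Il17a and Il4 were lost in 7 and 8 cases, at up to 0.11 and 0.13. For Il17a these were untreated replicates 2, 3 and 4, day 1 replicate 1 and day 2 replicates 2, 3 and 4, and for Il4 all 4 untreated replicates, day 1 replicate 4 and day 2 replicates 1, 3 and 4. All 4 of these calls were also lost with the first technical replicate alone, with no filter on missing values and with the replicate number as a block. Adjusted p then reached up to 0.26 for Il4 and 0.21 for Il17a at day 2. Stat4 lost its call without day 5 replicate 1 (adjusted p = 0.12) and with the block. Il13 lost its call without day 2 replicate 3 or day 5 replicate 1 or 2 (0.06 to 0.17). That call was also lost with no filter, a robust trended prior and the block. Cxcr3 lost its call with the second technical replicate alone (0.07). The day 5 to day 2 call of Il4 held in all 23 alternatives.

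Among the 8 tested regulatory T cell genes, 0 were called against untreated on any day by limma, with 2, 1 and 2 at an unadjusted p under 0.05. Ctla4, the inhibitory receptor of these cells, read -0.20, -0.31, 0.59 and 0.55 in untreated samples and 1.81, 1.23, 1.39 and 1.25 at day 1. The day 1 samples lay wholly above untreated, with a change of 1.27 ± 0.35 (SE, adjusted p = 0.051). The mean of Izumo1r was lower at day 1 than in untreated samples, and its samples overlapped. Tnfrsf18, known as GITR, had 0.47 at day 1 and -0.51 from day 2 to day 5 (adjusted p = 0.18 and 0.088). Gpr83, a receptor enriched in regulatory T cells, was higher at day 5 than at day 2 by 0.36 ± 0.12 (adjusted p = 0.049), the direction of Izumo1r. That call was lost without 1 library in 11 of 15 cases, at adjusted p of 0.055 to 0.23: any untreated or day 1 sample, day 2 replicate 1 or 3, or day 5 replicate 1. It was also lost with the first technical replicate alone (0.25), with no filter and with the replicate number as a block.

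Of the partners and pathway of EBI3, 13 genes of the interleukin-12 and interleukin-27 family were on the array and 6 were tested. Il12a, whose product pairs with EBI3, had changes of 0.25, 0.33 and 0.14 at days 1, 2 and 5 (limma adjusted p = 0.26, 0.10 and 0.62), where Ebi3 read -0.46, 0.01 and -0.90. Stat3, a signal transducer of interleukin-27 and interleukin-6, read 0.94, 0.03, 1.01 and 0.84 in untreated samples and 1.81, 1.67, 1.84 and 1.79 at day 2. It rose by 1.07 ± 0.21 (SE, adjusted p = 0.0026) at day 2 and fell by 1.59 ± 0.22 from day 2 to day 5 (adjusted p = 9.8e-05). Both calls held in all 23 alternatives.

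Socs1, the feedback inhibitor of cytokine signalling, read -0.38, -0.73, -0.43 and -0.76 in untreated samples, 0.27, 0.16, -0.13 and -0.03 at day 1 and -0.03, -0.27, -0.11 and 0.44 at day 2. Both days lay wholly above untreated. It rose by 0.64 ± 0.15 at day 1 and 0.58 ± 0.15 at day 2 (SE, limma adjusted p = 0.031 and 0.019) and fell by 0.52 from day 2 to day 5 (adjusted p = 0.029). Tyk2, a kinase of these receptors, had 0.34 from day 2 to day 5 (adjusted p = 0.082). Without 1 library the Socs1 calls were lost in 6, 3 and 3 cases, at adjusted p of up to 0.12, 0.068 and 0.10. At day 1 these were untreated replicates 2, 3 and 4 and day 1 replicates 1, 2 and 4, at day 2 untreated replicates 2 and 4 and day 2 replicate 4, and in the last comparison day 2 replicate 4 and day 5 replicates 1 and 2. The first 2 calls were also lost with the second technical replicate alone, and the last with quantile normalization, the first technical replicate alone and array weights. With the replicate number as a block, the day 1 call and the last were lost.

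Several neutrophil genes were higher at day 2, when Stat3 was. Of 10 tested mature neutrophil genes, 6 were called higher at day 2 (median change 1.13) and 5 lower at day 5 than at day 2 (median -1.06). At day 2 the other direction was seen for Ltf, Ngp and Cd177, with changes of -0.22, -0.38 and -0.62. At day 1 the called gene was Cd177, which fell by 1.25 (limma adjusted p = 0.0095), where Stat3 had 0.73 (adjusted p = 0.056). The mean log2 ratio over these 10 ran from -1.33 to -1.02 in untreated, -1.17 to -0.91 in day 1, -0.71 to -0.06 in day 2 and -1.55 to -1.19 in day 5 samples. Csf3r, the receptor for granulocyte colony-stimulating factor, had 1.56 at day 2 and -2.24 from day 2 to day 5 (limma adjusted p = 0.00017 and 8e-06). Cd4 and Ebi3 were also lower at day 5 than at day 2. The part of neutrophil RNA in these courses was not tested.

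The folate relatives of Izumo1r were Folr2, folate receptor beta, known from macrophages, and Folr1, with values in 3 of 15 samples. Folr2 read 0.10, 0.31, 0.62 and 0.75 in untreated samples and -0.67, -0.42, -0.07 and -0.31 at day 1. At day 2 it read -0.84, -0.95, -1.03 and -0.84, and at day 5 it read 0.62, 0.87 and 0.28. It fell by 0.81 ± 0.16 at day 1 and 1.36 ± 0.16 at day 2 (SE, limma adjusted p = 0.016 and 8.1e-05) and was 1.503 ± 0.178 higher at day 5 than at day 2 (adjusted p = 2.4e-05). Izumo1r had -0.74, -1.39 and 1.75 in the same comparisons, and r between the 2 genes was 0.95, or 0.63 with group means removed. They are related receptors, and whether their probes share sequence was not tested.

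Slc46a1, the proton-coupled folate transporter, moved opposite to both receptors. It read -0.20, -0.21, -0.44 and -0.48 in untreated samples, 0.27, 0.33, 0.01 and 0.20 at day 1, 0.43, 0.42, 0.25 and 0.16 at day 2 and -0.86, -0.74 and -0.52 at day 5, so that neither day 1 nor day 2 overlapped untreated. It rose by 0.53 ± 0.12 and 0.65 ± 0.12 (SE, limma adjusted p = 0.021 and 0.0015), and fell by 1.02 ± 0.13 from day 2 to day 5 (adjusted p = 3.3e-05). Shmt2, a mitochondrial enzyme of folate metabolism, had 0.63 at day 2 (adjusted p = 0.051), and Tyms, thymidylate synthase, 0.49 (adjusted p = 0.64). The day 1 calls of Folr2 and Slc46a1 were lost without 1 library in 4 and 5 cases, untreated replicates 3 and 4, day 1 replicates 1 and 2 and, for Slc46a1, day 1 replicate 4, at adjusted p of up to 0.066 and 0.083. Their other calls held in all 23 alternatives.

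Of 6 tested homing and survival genes, 1 was called lower in each comparison with untreated. Ccr9, which guides T cells to the small intestine and is also carried by plasmacytoid dendritic cells, read 0.11, 0.28, 0.21 and 0.52 in untreated samples and -0.67, -0.97, -0.77 and -0.72 at day 2. It fell by 0.54 ± 0.14 at day 1 and 1.06 ± 0.14 at day 2 (SE, limma adjusted p = 0.041 and 0.00014), and was 1.46 ± 0.15 higher at day 5 than at day 2 (adjusted p = 8e-06). Over the 15 samples Ccr9 had r = 0.97 with Izumo1r, and 0.79 with group means removed. Cxcr4, the receptor that holds cells in the marrow, read 0.69, 0.32, 0.99 and 1.22 in untreated samples and -0.09, -0.40 and 0.20 at day 5, without overlap. It fell by 0.90 ± 0.20 at day 5 (adjusted p = 0.037) and by 1.03 ± 0.20 from day 2 to day 5 (adjusted p = 0.0013). Itgal and Selplg, adhesion genes of the same list, had -0.70 at day 5 (adjusted p = 0.21) and 0.56 at day 2 (adjusted p = 0.10).

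Without 1 library, the day 1 call of Ccr9 was lost in 6 of 15 cases, with untreated replicates 2 to 4 and day 1 replicates 1, 2 and 4 (adjusted p of 0.066 to 0.14), and also with the second technical replicate alone and with no filter. The day 5 call of Cxcr4 against untreated was lost in 9 cases, with untreated replicates 1, 3 and 4, day 1 replicates 1, 3 and 4, day 2 replicate 3 and day 5 replicates 1 and 2 (adjusted p of 0.051 to 0.14), and also with array weights. Both the day 1 call of Ccr9 and the day 5 call of Cxcr4 against untreated were also lost with the replicate number as a block. The day 2 and day 5 to day 2 calls of Ccr9 and the day 5 to day 2 call of Cxcr4 held in all 23 alternatives.

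**Figure D3:**
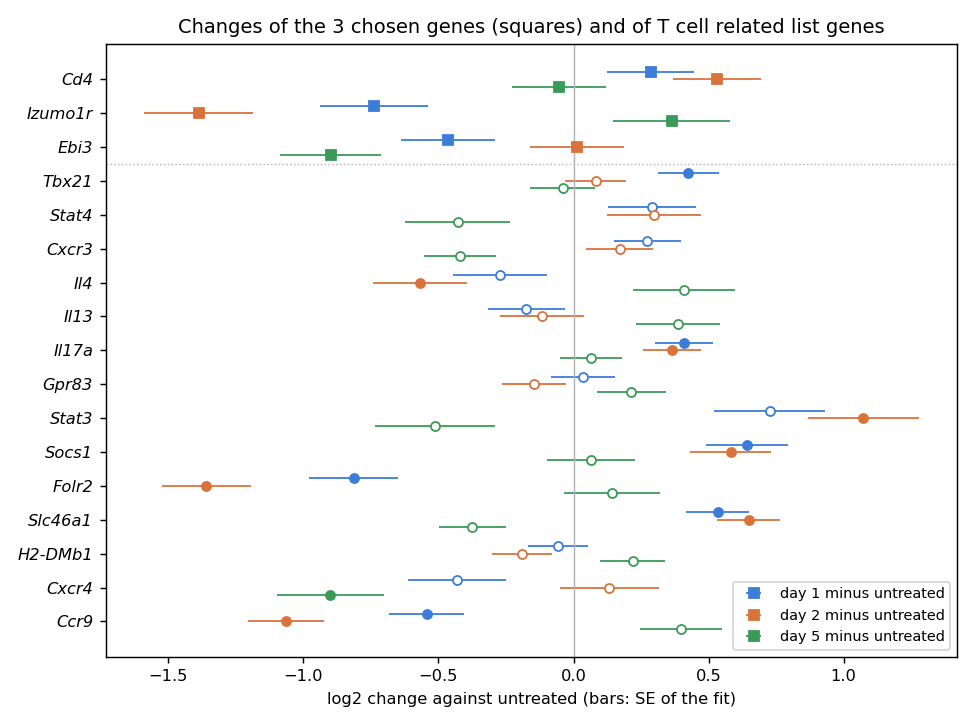
Log2 change against untreated (horizontal axis, bars are the SE of the fit) at day 1, day 2 and day 5 for Cd4, Izumo1r and Ebi3 (squares, not tested) and the 14 called T cell related genes (circles, filled where the limma adjusted p is under 0.05; some were called only between day 5 and day 2). Izumo1r, Folr2 and Ccr9 lie farthest left at day 2, at -1.39, -1.36 and -1.06, and Stat3 farthest right, at 1.07.

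RNA of other blood cells was measured beside these genes. Of 7 tested platelet genes, 4 were called higher at day 1, 0 at day 2 and 1 at day 5. All 7 had a change above 0 on each of these days, with medians of 1.37, 0.72 and 0.91. Treml1, a receptor in platelet granules, and Clu, which encodes clusterin, rose by 1.96 and 1.70 at day 1 (limma adjusted p = 0.016 and 0.022). The mean log2 ratio over these 7 ran from 2.06 to 2.25 in untreated, 3.34 to 3.65 in day 1, 2.15 to 3.31 in day 2 and 2.37 to 3.62 in day 5 samples. Day 1 is also when Tbx21, Il17a and Socs1 were called higher and when Cd4 and Ctla4 lay above untreated, and the part of platelet RNA in this was not tested. Of 10 tested CD8 and cytotoxic cell genes, 3 were called lower at day 2 and 2 at day 5, Nkg7, a granule protein, by 0.69 and 1.13 (limma adjusted p = 0.0028 and 0.00083). Of 9 tested B cell genes, 2 were called lower on each of days 1 and 2 and 3 on day 5. Of these, Ms4a1, which encodes CD20, fell by 1.56 at day 5 (adjusted p = 0.0037). The list was mixed, with 4 of the 9 having a change above 0 at day 5. Between day 5 and day 2, 2 were called higher and 4 lower. Cd72 had 0.44 at day 5 against untreated (limma adjusted p = 0.60) and 1.81 from day 2 to day 5 (adjusted p = 0.003). Cd4 was above untreated in the samples of days 1 and 2. Whether the share of CD4 cells among leukocytes differed was not measured.

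**Figure D4:**
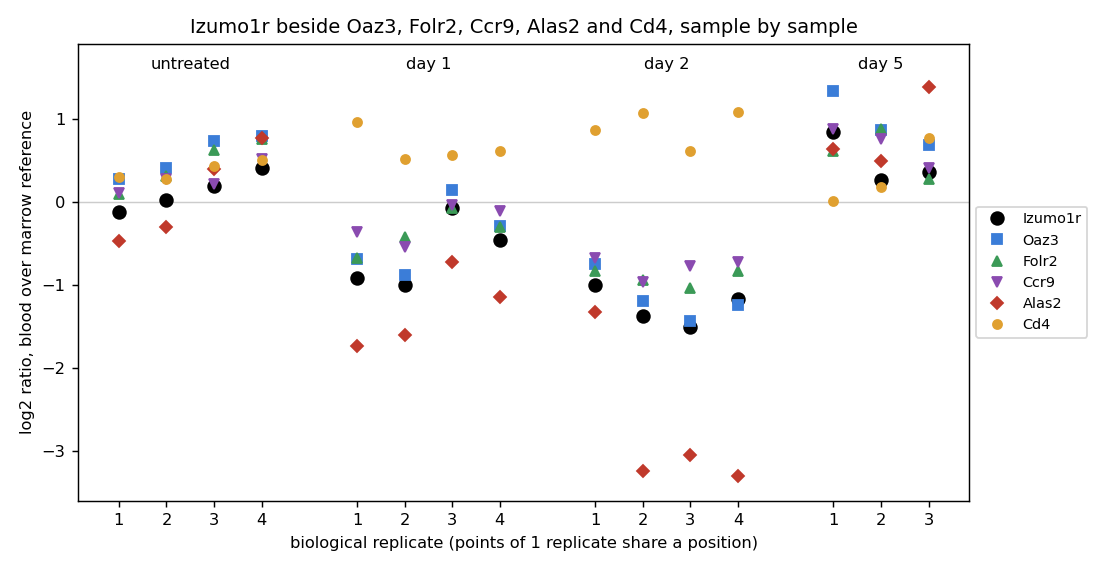
Log2 ratios of blood over the marrow reference (vertical axis) for Izumo1r, Oaz3, Folr2, Ccr9, Alas2 and Cd4 in each of the 15 samples (horizontal axis: biological replicates within the 4 groups). Izumo1r, Oaz3, Folr2, Ccr9 and Alas2 lie below 0 in all 4 day 2 samples, where Cd4 lies between 0.61 and 1.08.

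The promoter search was repeated for the 85 features with r over 0.95 with Izumo1r, of which 74 had a region in the RefSeq table. TGTGGT was held by 13 of them (17.6%, against 18.9% of 27025 genes). AGATAA, the only form searched for GATA factors, which act in red cell precursors, was held by 10 (13.5% against 12.7%). CCGGAAG was held by 6 (8.1% against 9.9%). TTCNNNGAA was held by 9 (12.2% against 9.6%), TATAAA by 9 (12.2% against 15.7%) and CACGTG by 7 (9.5% against 8.1%). These shares describe the letters near the start sites and were not tested.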

How the data were processed

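Blood leukocyte RNA of 15 DBA/2 mouse samples was measured on 2-colour arrays, with 2 technical replicates each. Per the labels, the blood sample was labelled with Cy5 and the bone marrow reference with Cy3. The authors' deposited values, read here as log2 of the Cy5 to Cy3 ratio, run from -4.70 to 5.76. No source used here gives the base of the logarithm, the scanner, the normalization or the filter behind empty values. Column medians lay between -0.0028 and 0.025, so ratios show unequal change and not absolute amounts. Each column held 5314 to 9398 values of 13443 probes, technical replicates correlated at 0.829 to 0.957, and the number of arrays limits the precision.

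Technical replicates were averaged, and probes of a symbol were averaged. Of the probes, 10032 had 1 symbol in the platform annotation, 170 several and 3241 none; 3 list symbols were matched through synonyms. Features with values in at least 3 of 4 samples (2 of 3 at day 5) of each group were tested with limma 3.58.1 (R 4.3.3). The model had a mean for each group, fitted to all 15 samples, and p-values were adjusted by Benjamini-Hochberg over 6515 features and called under 0.05. The code was tested on simulated data. Samples that share a number were not treated as paired. Their deviations from the group means had r over 0.1 in 7 of 21 same-numbered pairs (-0.346 to 0.217). Among differently numbered pairs r reached 0.41. With 3 or 4 samples in a group this check cannot exclude pairing.

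The 3 genes, the gene lists and the tests were chosen with earlier results of these data known. Named besides were every called gene of the 8 T cell related lists, at most 2 further genes per list by the lowest F test p, the 5 genes closest to each of the 3 by Pearson's r, Alas2, and at most 2 called genes of each other cell type. Rhag, Ltf, Ngp, Cd177, Cd72 and the count of samples with a value for untested markers were added after their values were seen. Alternatives were quantile normalization, each technical replicate alone, no filter, complete features, a robust trended prior, array weights, the replicate number as a block and leaving out each sample.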

Additional observations from a re-analysis of the deposited data

Results flagged for a closer look

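In 48 groups of 4 samples of Cd4, Izumo1r, Ebi3 and the 14 called T cell related genes, the gap between the extreme sample and its nearest neighbour was set against the range with Dixon's critical value of 0.829. The gap was larger in 3 groups, and chance gives about 1 in 20. Il4 at day 2 was lowest in replicate 3, at -0.6847, where the others lay between -0.17 and -0.07. Il17a at day 1 was lowest in replicate 3, at 0.1668, and the others lay between 0.43 and 0.48. Cxcr4 at day 1 was highest in replicate 2, at 0.6258, and the others lay between 0.27 and 0.31. None of the groups of Cd4, Izumo1r and Ebi3 was among them.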

How the results depend on the processing

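The 12 differences of Cd4, Izumo1r and Ebi3 each moved by less than 1 SD of the replicates in 23 alternatives; Cd4 at day 5 against untreated, near 0, ranged from -0.28 to 0.10 and Ebi3 at day 2 from -0.08 to 0.15. Of 26 calls of the named T cell related genes, 10 were kept in every alternative; 11 were lost with the replicate number as a block, 7 with the first and 4 with the second technical replicate alone, 7 with no filter, 2 with array weights and 1 each with quantile normalization and a robust trended prior. The 300 calls at day 1 became 462 with quantile normalization, 200 with no filter, 107 with the replicate number as a block and 903 with array weights. The 71 at day 5 became 111 with quantile normalization and 116 over complete features. T cell related genes called higher at day 1, 4 as reported, became 2 with no filter, 1 with the block and 9 with array weights. Those called lower at day 1, 2 as reported, became 4 with quantile normalization and 1 with the second technical replicate alone or with no filter. The 1 called lower at day 5 became 2 with quantile normalization and 0 with array weights. The cause was not tested.

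Leaving out 1 sample gave 60 to 438 calls at day 1, 529 to 942 at day 2 (529 without untreated replicate 4), 27 to 224 at day 5 (224 without day 5 replicate 3 and 27 without replicate 1) and 1196 to 1856 from day 2 to day 5. T cell related genes called higher ranged from 0 to 5 at day 1, 2 to 6 at day 2, 0 to 1 at day 5 and 3 to 7 from day 2 to day 5, and those called lower from 0 to 2 at day 1, 2 to 4 at day 2, 0 to 1 at day 5 and 5 to 9 from day 2 to day 5. Signal over background is not in the deposited ratios, so dim probes could not be set apart.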
